A study of Mus musculus with 4 samples.

Results

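The genes of glycolysis and of the response to hypoxia-inducible factor 1 (HIF-1) were followed across 4 cultured and sorted populations of mouse CD4 T cells. The set holds 35 genes chosen by name: enzymes of the pathway from glucose to lactate, carriers of glucose and lactate, enzymes that set the flux, HIF-1 itself with the hydroxylases that limit it, and targets of HIF-1 outside glycolysis. Of these, 31 had a probe set that the platform annotation gives to that gene alone, out of 18193 genes measured in this way. Gapdh and Bnip3l were covered only by array controls or by probe sets shared with other symbols, and the expression of Gpi1 and Eno1 was not analysed here. Where a gene had several probe sets, the brightest over the 4 arrays represented it.

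Each population was measured on 1 array. All came from spleen and lymph nodes of C57BL/6 mice aged 8 to 10 weeks. Th0 cells were naive CD4 T cells kept under Th0 conditions and sorted as negative for Foxp3 and for IL-17, read through GFP. Th17 cells were naive CD4 T cells placed under Th17 conditions and sorted as IL-17 positive and Foxp3 negative. The exFoxp3Th17 cells passed the same gate after the same conditions, but started as Foxp3+ CD4 T cells. Treg cells also started as Foxp3+ CD4 T cells, were cultured with IL-2, and were sorted as Foxp3 positive and IL-17 negative. The labels used here give neither the number of animals behind an array nor the cytokines of the Th17 conditions. The comparisons ask how the origin of the cells (exFoxp3Th17 with Th17, Treg with Th0) and the culture with its gate (Th17 with Th0, exFoxp3Th17 with Treg) bear on these genes.

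Glycolysis converts glucose to pyruvate in the cytosol, and lactate dehydrogenase turns the pyruvate into lactate. Activated T cells raise glucose uptake and glycolysis as they grow, and Th17 differentiation is known to draw on HIF-1. The alpha subunit of HIF-1 is made constantly and, when oxygen is present, is hydroxylated by the prolyl hydroxylases, ubiquitinated through the von Hippel-Lindau protein and degraded. When it accumulates, through hypoxia or through T cell receptor and mTOR signals, it raises the transcription of most glycolytic enzymes, of glucose and lactate carriers and of its own hydroxylases. HIF-1 activity is thus set largely at the protein level, which these arrays did not measure.

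The arrays give linear signal intensities with no fixed unit, and a signal is compared only between arrays, not between genes. Readings under a floor of 12.1, the median of all probe sets, were raised to it before ratios were taken. A fold against such a reading is therefore the least it could be, marked "at least". The words higher and lower are calls: a ratio of 2 or more between a pair of arrays, with the brighter reading over the floor. With 1 array a population there is no replicate error and no test, and a lower signal in a population cannot be told apart from fewer cells that express the gene. All 31 genes were over the floor somewhere, and 28 on all 4 arrays; Eno2 was so only in exFoxp3Th17. As a measure of error within arrays, log2 ratios from 2 probe sets of the same gene differed by a robust SD of 0.40 to 0.51, depending on the comparison.

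The measured CD4 T cell identity genes were above the floor on every array. Cd3d was bright, at 3492 in Th17, 3133 in Treg, 4127 in Th0 and 4536 in exFoxp3Th17. Cd4 itself was dim, at 81.2 in Th17, 48.3 in Treg, 109.6 in Th0 and 98.1 in exFoxp3Th17. It was called lower in Treg than in Th0 (2.27-fold) and than in exFoxp3Th17 (2.03-fold). Foxp3 lay above the floor only in Treg (585), as sorted, whereas Il17a lay below it on all 4 arrays and so did not show the IL-17 gate. The share of probe sets above the floor was 48.7% to 51.2%, and the ratio of 3' to 5' control signal, a sign of RNA integrity, was 0.91 to 1.06 for Gapdh and 1.12 to 1.31 for Actb. Markers of B cells, myeloid cells, CD8 T cells, NK cells and erythroid cells were at most 83.5 on any array, the highest being Cd8b1 in Th17. The exFoxp3Th17 array alone carried Xist (3766, against 7.41 to 10.8 on the others) and lacked the Y-linked Eif2s3y (4.66, against 654 to 876), the pattern of female cells on that array and male cells on the others. That difference lies wholly with the exFoxp3Th17 array. Its part in the results below was not tested and cannot be told apart from origin or culture. Pgk1 is the only measured member on the X chromosome and none is on the Y.

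The populations fell into a common order for these genes. The exFoxp3Th17 array was the lowest of the 4 for 23 of the 31 genes, against 27.5% of all genes above the floor, and the Th17 array was the highest for 21, against 18.4%. For 15 of the 31 the full order was Th17, Treg, Th0, exFoxp3Th17 from high to low, an order that 4.44% of all genes took. The other 16 departed from it in some way. Th0 was the highest array for 5 (Aldoa, Pgk1, Pfkfb4, Pdk1 and Kdm3a; 27.6% of all genes) and the lowest for 5 (Eno2, Hif1a, Egln3, Ddit4 and Mxi1; 23.4%). Treg was the highest for 3 (Ldha, Slc16a3 and P4ha1; 21.1%), exFoxp3Th17 was the highest for Pfkm and Eno2 (32.8%), and Th17 was the lowest for none (24.7% of all genes). Treg was the lowest for 3, Pfkm, Pfkfb4 and Kdm3a (24.4% of all genes). For Aldoa and Pgk1 the top rank of Th0 depends on the probe set. Some further sets had Th17 highest, as for Aldoa (2091 in Th17, 1778 in Th0) and Pgk1 (5419 and 4869). Others kept Th0 highest. The spread was also wide, since 26 of the 31 ranged over 2-fold or more (35.4% of all genes did) and 14 over 4-fold or more (9.95%). The 2 cultures under Th17 conditions therefore stood at the opposite ends of the range for most of these genes.

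**Figure D1:**
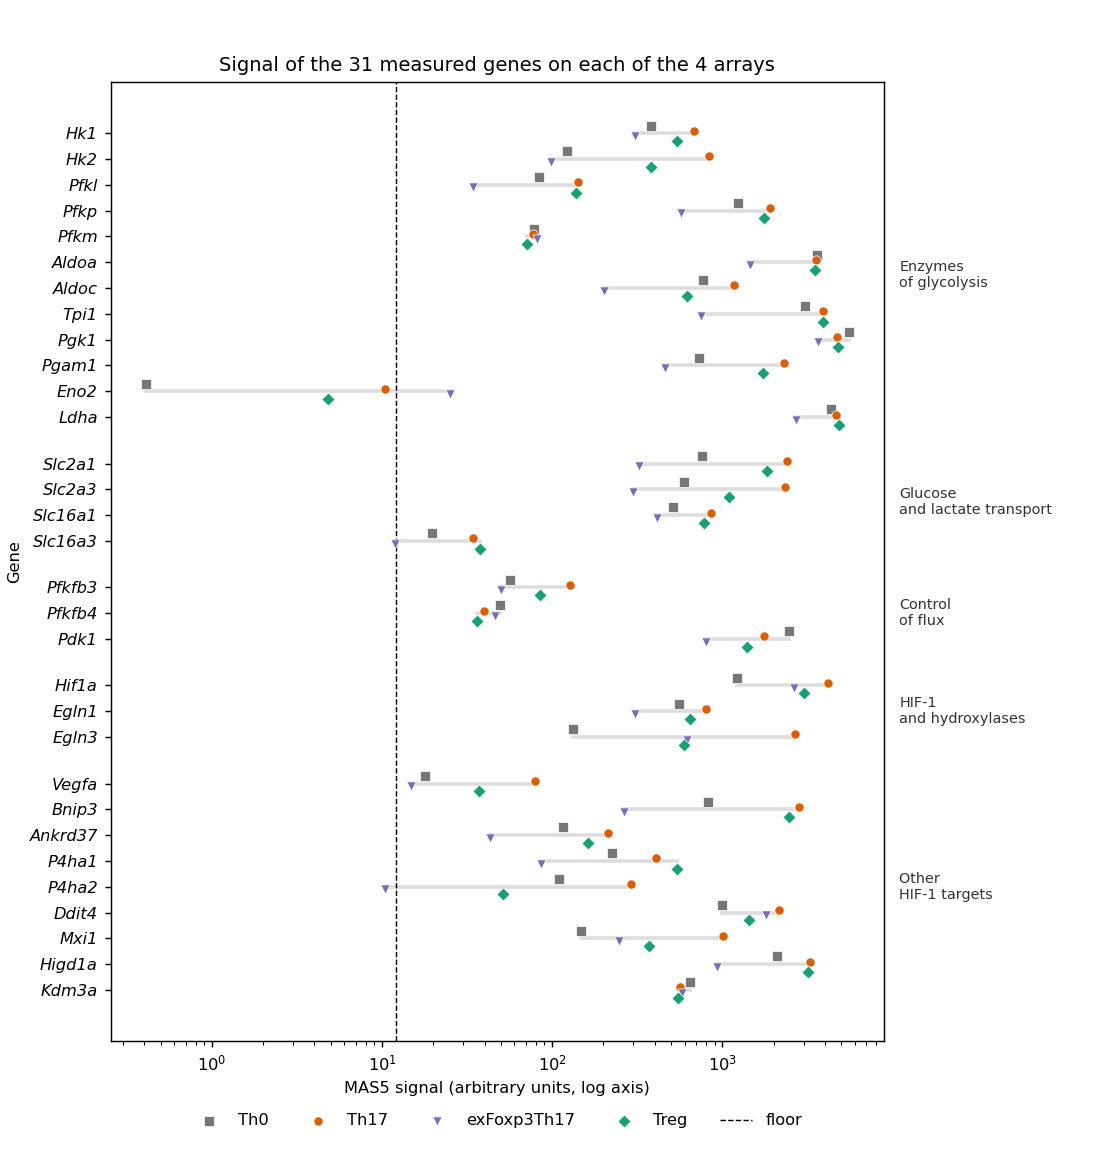
Signal of each of the 31 measured genes (log horizontal axis, arbitrary units) on the 4 arrays, grouped by role; each symbol is 1 array, grey bars span the range and the dashed line is the floor of 12.1. The exFoxp3Th17 symbol is the leftmost for 23 genes and the Th17 symbol the rightmost for 21.

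The exFoxp3Th17 and Th17 cells share conditions and gate, and differ in origin and in the Xist and Y-linked pattern. Between them, 23 of the 31 genes were lower in exFoxp3Th17 by 2-fold or more, 1 was higher and 7 were neither. Over all 11769 genes above the floor, 7.27% were lower and 7.48% higher. The median log2 ratio was -1.74 for these genes and 0.03 for all genes. Of the 23 called lower, 15 had a further probe set above the floor; in all 15 every further set was also lower, and in 14 at least 1 was lower by 2-fold or more.

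Hexokinase traps glucose in the cell as glucose 6-phosphate. Hk2, the inducible isozyme, had signals of 835 in Th17, 383 in Treg, 122 in Th0 and 98.9 in exFoxp3Th17. It was high in the naive-derived Th17 cells, intermediate in Treg and near its Th0 level in exFoxp3Th17, 8.44-fold below Th17. Hk1, the constitutive isozyme, was at 682 in Th17, 539 in Treg, 379.9 in Th0 and 308 in exFoxp3Th17, the same order over a narrower range (2.21-fold between exFoxp3Th17 and Th17).

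Phosphofructokinase makes the committed step of the pathway, and its 3 subunits differed in how they varied. The platelet-type subunit gene Pfkp stood at 1906 in Th17, 1766 in Treg, 1229.8 in Th0 and 569.6 in exFoxp3Th17. The liver-type Pfkl stood at 142 in Th17, 139 in Treg, 83.3 in Th0 and 34.3 in exFoxp3Th17. Both were lowest in exFoxp3Th17, by 3.35-fold and 4.13-fold against Th17, with Th17 and Treg close together. The muscle-type Pfkm was flat, from 71.1 in Treg to 81.4 in exFoxp3Th17.

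Aldolase and triose phosphate isomerase follow, splitting the hexose and interconverting the resulting trioses. Tpi1 had signals of 3906 in Th17, 3905 in Treg, 3064 in Th0 and 750.2 in exFoxp3Th17. It was nearly equal in Th17 and Treg and 5.21-fold lower in exFoxp3Th17, and its other probe sets went the same way. Aldoa was at 3569 in Th17, 3518 in Treg, 3579.6 in Th0 and 1463 in exFoxp3Th17, flat but for exFoxp3Th17, 2.44-fold below Th17. Aldoc, whose product is better known from brain, was at 1163 in Th17, 624 in Treg, 769 in Th0 and 203 in exFoxp3Th17, with exFoxp3Th17 5.73-fold below Th17. The other, dimmer Aldoc probe set also had exFoxp3Th17 lowest (15.5). It had Th0 highest, not Th17, at 47.2 in Th17, 62.8 in Treg and 93.7 in Th0.

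The later steps were less even. Pgam1, the phosphoglycerate mutase, was at 2309 in Th17, 1741 in Treg, 728 in Th0 and 463 in exFoxp3Th17, so that Th17 and Treg stood clearly above Th0 and exFoxp3Th17 (4.99-fold between exFoxp3Th17 and Th17). Pgk1, whose enzyme makes the first ATP of the pathway, was at 4702 in Th17, 4792 in Treg, 5541 in Th0 and 3631 in exFoxp3Th17. Ldha, the lactate dehydrogenase subunit that favours lactate, was at 4649.8 in Th17, 4833 in Treg, 4336 in Th0 and 2726 in exFoxp3Th17. Both were lowest in exFoxp3Th17, but by less than 2-fold against Th17 (1.30-fold and 1.71-fold). Eno2, the neuronal enolase, was the only gene called higher in exFoxp3Th17: it read 25.0 there and was under the floor elsewhere (10.4 in Th17, 4.78 in Treg and 0.407 in Th0), a call that ends when the floor is doubled. The array controls for Gapdh, read at the 3' end, were at 4241 in Th17, 4184 in Treg, 4172 in Th0 and 2996 in exFoxp3Th17, again lowest in exFoxp3Th17. Probe sets that carry Gapdh and other symbols disagreed on the size. The brightest read 3869.9 in Th17, 3989.8 in Treg, 4449 in Th0 and 3690.2 in exFoxp3Th17, nearly flat. Another read 143 in Th17, 147 in Treg, 116 in Th0 and 29.3 in exFoxp3Th17, 4.89-fold lower there than in Th17. The third, near the floor, read 20.8, 22.8, 12.3 and 14.1 in the same order of arrays.

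Transcripts of the glucose and lactate carriers went with those of the enzymes: all 4 carrier genes were lower in exFoxp3Th17 than in Th17 by 2-fold or more. Among all genes, 7.27% were lower in that comparison and 7.48% higher. Slc2a1, which encodes the glucose transporter GLUT1 of activated T cells, had signals of 2387 in Th17, 1831 in Treg, 759 in Th0 and 323 in exFoxp3Th17. Slc2a3, which encodes the high-affinity transporter GLUT3, had signals of 2328 in Th17, 1095 in Treg, 598 in Th0 and 299 in exFoxp3Th17. Both were highest in Th17 and lowest in exFoxp3Th17, with folds of 7.38 and 7.79 between them, although Treg stood nearer to Th17 for Slc2a1 than for Slc2a3. The lactate carriers Slc16a1 (MCT1; 859.8 in Th17, 779 in Treg, 509 in Th0 and 415 in exFoxp3Th17) and Slc16a3 (MCT4; 34.4 in Th17, 37.9 in Treg, 19.7 in Th0 and 11.9 in exFoxp3Th17) were lowest in exFoxp3Th17 too, Slc16a1 by 2.07-fold against Th17. Slc16a3 was below the floor in exFoxp3Th17, which makes its 2.85-fold difference a lower bound.

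Of the enzymes that steer the flux, Pfkfb3 makes fructose 2,6-bisphosphate, the activator of phosphofructokinase, and Pdk1 phosphorylates pyruvate dehydrogenase and so keeps pyruvate from the mitochondrion. Pfkfb3 was at 126 in Th17, 85.1 in Treg, 56.7 in Th0 and 49.9 in exFoxp3Th17, 2.53-fold lower in exFoxp3Th17 than in Th17. Pdk1 departed from the common order, at 1747 in Th17, 1392 in Treg, 2481 in Th0 and 798 in exFoxp3Th17: it was highest in the unpolarised cells and again lowest in exFoxp3Th17. Its further probe sets also had Th0 highest, but the dimmest had Treg (25.2) just below exFoxp3Th17 (26.6). They put Treg below Th0 by 2.12-fold, 3.36-fold and 4.34-fold, so whether Pdk1 passed 2-fold in that comparison depends on the probe set. Pfkfb4 was dim and flat, between 36.1 and 49.3.

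The transcript of HIF-1 alpha did not follow this order. Hif1a had signals of 4162 in Th17, 3006 in Treg, 1224 in Th0 and 2639 in exFoxp3Th17. It was lowest in Th0, not in exFoxp3Th17, and exFoxp3Th17 stood 2.16-fold above Th0 and within 2-fold of both Th17 (1.58-fold lower) and Treg (1.14-fold lower). Its 2 further probe sets above the floor on all arrays also had Th0 lowest and Th17 highest, but put exFoxp3Th17 below Th17 by 2.18-fold and 2.64-fold, so whether Hif1a passed 2-fold in that comparison depends on the probe set. Egln1, the main oxygen-sensing prolyl hydroxylase, was at 804 in Th17, 648 in Treg, 556 in Th0 and 305 in exFoxp3Th17, lowest in exFoxp3Th17 like the enzymes.

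Egln3, a prolyl hydroxylase known as a strong HIF target, had the second widest range of the set (20.0-fold). Its signals were 2667 in Th17, 596 in Treg, 133 in Th0 and 617 in exFoxp3Th17. Th17 stood far above the rest, exFoxp3Th17 and Treg were alike and Th0 was lowest, and the second probe set gave the same top and bottom (383 in Th17 and 22.6 in Th0). Between exFoxp3Th17 and Th17 the difference was 4.32-fold, and exFoxp3Th17 was 4.63-fold above Th0.

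Targets of HIF-1 outside glycolysis were lower in exFoxp3Th17 than in Th17 for 7 of 9 measured genes. Among all genes, 7.27% were lower there and 7.48% higher. Bnip3, which drives the removal of mitochondria by autophagy, was at 2837 in Th17, 2458 in Treg, 823 in Th0 and 263 in exFoxp3Th17. The 2 populations from Foxp3+ precursors stood at nearly the 2 ends of its range, and exFoxp3Th17 was 10.8-fold below Th17 and 9.35-fold below Treg. Its relative Bnip3l, read through a probe set shared with a pseudogene, stayed within 2-fold at 2059 in Th17, 1490.1 in Treg, 1277 in Th0 and 1394 in exFoxp3Th17. The dimmest Bnip3l probe set, also with several symbols, read 543 in Th17 and 264 in Th0, a 2.06-fold difference.

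P4ha1 and P4ha2 encode the catalytic subunits of collagen prolyl 4-hydroxylase. P4ha2 had signals of 289 in Th17, 51.4 in Treg, 109 in Th0 and 10.4 in exFoxp3Th17, the widest range of the set (at least 23.9-fold between Th17 and exFoxp3Th17). It lay below the floor in exFoxp3Th17 and, unlike most of the set, was lower in Treg than in Th0. P4ha1 had signals of 409.9 in Th17, 542 in Treg, 225 in Th0 and 86.5 in exFoxp3Th17, highest in Treg and 4.74-fold lower in exFoxp3Th17 than in Th17.

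The angiogenic factor gene Vegfa was dim but ordered like Hk2, at 79.5 in Th17, 37.0 in Treg, 17.8 in Th0 and 14.7 in exFoxp3Th17. Mxi1, which encodes an antagonist of Myc, was at 1010.0 in Th17, 373 in Treg, 147 in Th0 and 246 in exFoxp3Th17, highest in Th17 by a wide margin and lowest in Th0. Ankrd37, an ankyrin repeat gene, was at 211 in Th17, 163 in Treg, 116 in Th0 and 43.0 in exFoxp3Th17. Higd1a, a mitochondrial protein gene induced by hypoxia, was at 3255 in Th17, 3179.8 in Treg, 2103 in Th0 and 935 in exFoxp3Th17. For both of these exFoxp3Th17 was lowest and Th17 highest, with Treg second. Ddit4 (REDD1), an inhibitor of mTOR, was at 2158 in Th17, 1439 in Treg, 999 in Th0 and 1817 in exFoxp3Th17: exFoxp3Th17 was second to Th17 and within 2-fold of every other array. The histone demethylase gene Kdm3a varied little, from 548 in Treg to 648 in Th0.

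**Figure D2:**
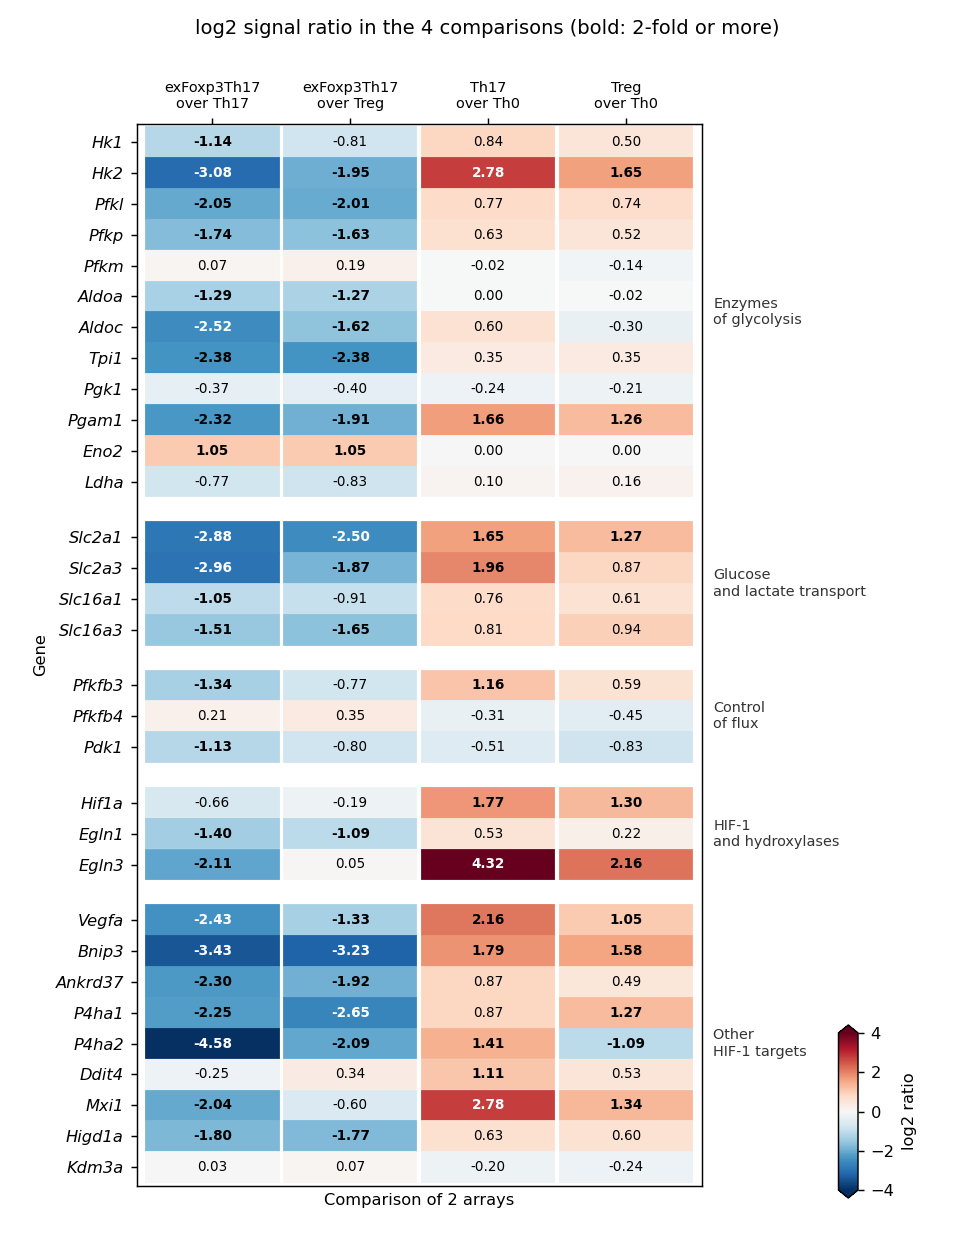
log2 ratio of signals for the 31 genes in the 4 comparisons of arrays, after the floor; colour runs from blue (lower in the first array) to red (higher) and bold marks 2-fold or more. The columns for exFoxp3Th17 hold 23 and 17 genes that were lower by 2-fold or more, and the columns against Th0 hold 12 and 9 that were higher.

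Th17 against Th0, which compares the culture conditions and gate in naive-derived cells, went the other way. Of the 31 genes 12 were higher in Th17, none lower and 19 neither, with 8.22% of all genes higher and 6.88% lower, and the median log2 ratio was 0.81 against -0.02 for all genes. Of the 12 enzymes of glycolysis 2 were called, Hk2 (6.85-fold) and Pgam1 (3.17-fold), beside Slc2a3 (3.89-fold), Slc2a1 (3.14-fold) and Pfkfb3 (2.23-fold). The hydroxylase Egln3 had the largest difference (20.0-fold), followed by Mxi1 (6.86-fold), Hk2 and Vegfa (4.46-fold). Bnip3, Hif1a, P4ha2 and Ddit4 were higher by 3.45-fold, 3.40-fold, 2.65-fold and 2.16-fold. Aldoa, Ldha and Tpi1 were alike on both arrays (log2 ratios of 0.00, 0.10 and 0.35). Pdk1, counted as neither, was lower in Th17 by 2.21-fold and 3.01-fold on some of its further probe sets. Pfkp and P4ha1, also counted as neither, were higher in Th17 on further, dimmer probe sets. Those of Pfkp gave 2.34-fold and 2.88-fold, and that of P4ha1 gave 3.17-fold.

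In exFoxp3Th17 against Treg, both from Foxp3+ precursors, 17 of the 31 were lower, 1 was higher and 13 were neither. Here 9.94% of all genes were lower and 11.3% higher, and the medians were -1.27 and 0.02. Bnip3 led (9.35-fold), then P4ha1 (6.27-fold), Slc2a1 (5.66-fold), Tpi1 (5.21-fold) and P4ha2 (at least 4.24-fold). Hif1a (log2 -0.19), Egln3 (0.05), Mxi1 (-0.60) and Ddit4 (0.34) did not pass 2-fold. The higher gene was Eno2, with the same limit as above. The exFoxp3Th17 array is the same as in the first comparison, so the lower calls in both rest on the same measurement of these cells.

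Treg against Th0 had the fewest calls of the 4 comparisons: 9 of the 31 were higher in Treg, 1 was lower and 21 were neither, with 5.56% of all genes higher and 4.95% lower (medians 0.53 and -0.01). The higher genes were Egln3 (4.47-fold), Hk2 (3.14-fold), Bnip3 (2.99-fold), Mxi1 (2.53-fold), Hif1a (2.46-fold), Slc2a1 (2.41-fold), P4ha1 (2.41-fold), Pgam1 (2.39-fold) and Vegfa (2.07-fold). P4ha2 was the lower one (2.12-fold), and this call was lost under both other scalings of the arrays. Pdk1, counted as neither, was lower in Treg by more than 2-fold on its further probe sets. Pfkp, also counted as neither, was higher in Treg by 2.59-fold on its dimmest probe set.

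Against Th0, the other low array, exFoxp3Th17 was still lower for 13 of the 31 genes and higher for 3, with 15 neither (8.42% of all genes were lower and 9.92% higher). The lower ones included P4ha2 (log2 ratio of -3.17 at most), Tpi1 (4.09-fold), Aldoc (3.79-fold), Bnip3 (3.13-fold) and Pdk1 (3.11-fold). Hk2, Hk1, Slc16a1, Vegfa and Pfkfb3 were below Th0 by 1.14-fold to 1.23-fold. The 3 higher genes were Egln3, Hif1a and Eno2. Along the set, then, HIF-1 alpha, its hydroxylase Egln3 and, below the 2-fold line, Ddit4 and Mxi1 (log2 ratios of 0.86 and 0.74) stood above Th0 in exFoxp3Th17 while most enzymes stood at or below it.

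Culture under Th17 conditions went with opposite differences in cells of the 2 origins for part of the set. In all, 7 genes were called higher in Th17 than in Th0 and lower in exFoxp3Th17 than in Treg: Hk2, Pgam1, Slc2a1, Slc2a3, Vegfa, Bnip3 and P4ha2. Such opposite calls, in either direction, were made for 2.52% of all genes. These 2 comparisons share no array. Read by origin instead, 8 genes were lower in exFoxp3Th17 than in Th17 and higher in Treg than in Th0, against 2.99% of all genes called oppositely in either direction: Hk2, Pgam1, Slc2a1, Vegfa, Bnip3, Egln3, P4ha1 and Mxi1. The difference between the culture ratios was widest for Bnip3, with log2 ratios of 1.79 in naive-derived and -3.23 in Foxp3+-derived cells. The control cultures of the 2 origins were not alike, since Treg cells had IL-2 and kept Foxp3, so origin and control culture cannot be told apart here. The Xist and Y-linked pattern also sets the exFoxp3Th17 array apart. It cannot be told apart from origin or culture in the contrasts with that array.

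**Figure D3:**
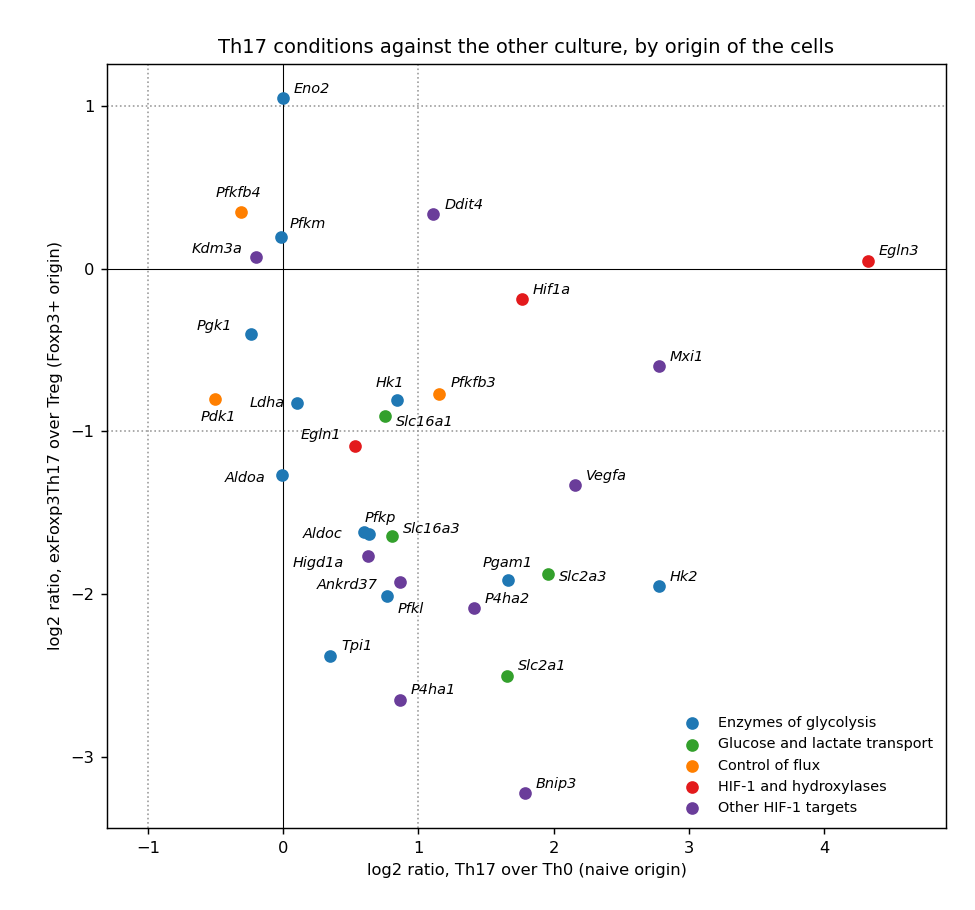
log2 ratio of Th17 over Th0 (horizontal) and of exFoxp3Th17 over Treg (vertical) for the 31 genes, coloured by role; dotted lines mark 2-fold. The lower right field holds the 7 genes called higher in the first comparison and lower in the second, and Egln3, at 4.32 and 0.05, lies far to the right on the zero line.

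Related isozymes and paralogs did not vary together in every case. Hk2 ranged 8.44-fold over the 4 arrays and Hk1 2.21-fold, in the same order. Pfkl (4.13-fold) and Pfkp (3.35-fold) ranged widely and Pfkm (1.14-fold) did not. Pfkfb3 (2.53-fold) and Pfkfb4 (1.36-fold) differed likewise, as did Egln3 (20.0-fold) and Egln1 (2.64-fold). The transporters Slc2a1 and Slc2a3 kept 1 order and like ranges (7.38-fold and 7.79-fold). P4ha1 and P4ha2 shared exFoxp3Th17 as their lowest array but parted in Treg, which was the highest for P4ha1 and the second lowest for P4ha2.

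Promoters are shown for 7 genes: carriers and enzymes with wide or narrow differences (Slc2a1, Ldha, Pgk1), the 3 genes with the widest ranges (Bnip3, P4ha2, Egln3) and a HIF target that was flat here (Kdm3a). The sequences are from RefSeq on build GRCm38.p6 and give the 250 bases before the annotated start, 5′ to 3′ on the gene's strand; for Ldha and Kdm3a, which have 2 and 3 entries, the first is shown. Capitals mark ACGTG and GCGTG on either strand, the core letters of the HIF response element. CACGTG holds ACGTG on both strands and counts as 2 matches.
Slc2a1, chr4:119108495-119108744, plus strand: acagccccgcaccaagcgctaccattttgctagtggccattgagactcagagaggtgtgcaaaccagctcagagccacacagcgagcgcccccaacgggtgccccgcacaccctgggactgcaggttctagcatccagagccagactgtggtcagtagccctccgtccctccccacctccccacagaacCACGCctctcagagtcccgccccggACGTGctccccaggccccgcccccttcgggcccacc
Ldha, chr7:46845554-46845803, plus strand: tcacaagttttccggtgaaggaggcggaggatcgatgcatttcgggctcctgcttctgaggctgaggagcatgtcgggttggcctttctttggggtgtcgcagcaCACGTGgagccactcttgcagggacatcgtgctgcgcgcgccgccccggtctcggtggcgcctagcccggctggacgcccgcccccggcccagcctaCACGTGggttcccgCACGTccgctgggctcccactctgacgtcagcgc
Pgk1, chrX:106186850-106187099, plus strand: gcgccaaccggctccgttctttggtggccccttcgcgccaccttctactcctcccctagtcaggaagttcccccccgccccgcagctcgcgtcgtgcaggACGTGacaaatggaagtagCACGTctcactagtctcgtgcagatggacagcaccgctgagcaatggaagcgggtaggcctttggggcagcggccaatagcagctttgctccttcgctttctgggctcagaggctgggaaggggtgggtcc
Bnip3, chr7:138909507-138909756, minus strand: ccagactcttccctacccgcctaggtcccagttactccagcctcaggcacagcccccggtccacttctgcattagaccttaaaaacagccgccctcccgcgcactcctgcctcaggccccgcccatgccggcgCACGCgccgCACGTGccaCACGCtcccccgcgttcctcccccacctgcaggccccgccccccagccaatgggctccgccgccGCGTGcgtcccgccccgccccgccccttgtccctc
P4ha2, chr11:54100674-54100923, plus strand: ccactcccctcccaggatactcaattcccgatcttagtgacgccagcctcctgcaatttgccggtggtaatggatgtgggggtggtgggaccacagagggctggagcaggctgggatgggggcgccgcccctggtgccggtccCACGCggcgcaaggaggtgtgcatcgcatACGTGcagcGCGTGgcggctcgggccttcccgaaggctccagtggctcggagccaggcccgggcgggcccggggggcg
Egln3, chr12:54203875-54204124, minus strand: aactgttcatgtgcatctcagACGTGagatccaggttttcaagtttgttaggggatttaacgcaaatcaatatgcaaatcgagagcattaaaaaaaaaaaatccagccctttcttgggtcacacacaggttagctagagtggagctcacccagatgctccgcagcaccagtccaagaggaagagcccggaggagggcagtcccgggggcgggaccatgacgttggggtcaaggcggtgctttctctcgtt
Kdm3a, chr6:71632918-71633167, minus strand: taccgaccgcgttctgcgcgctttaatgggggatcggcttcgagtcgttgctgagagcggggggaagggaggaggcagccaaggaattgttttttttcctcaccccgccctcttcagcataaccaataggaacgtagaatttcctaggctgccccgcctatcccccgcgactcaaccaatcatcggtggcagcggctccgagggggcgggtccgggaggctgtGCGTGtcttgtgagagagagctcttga
Bnip3 holds 5 matches and P4ha2 3, and both ranged widely. Ldha holds 5 and Pgk1 2, and both stayed within 2-fold over the 4 arrays. Egln3, which ranged 20.0-fold, holds 1, near the distal end of the window. Slc2a1 holds 2 and the flat Kdm3a 1.

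Over the set, 33 of the 35 genes have a promoter entry, with 50 windows of 300 bases (250 before the start and 50 after). ACGTG, on either strand, was in 56.0% of the 50 windows, against 19.6% of all 32851 windows and 25.3% of the 12196 windows of genes above the floor. GCGTG was in 56.0%, against 32.4% and 49.7%. The palindrome CACGTG, which contains ACGTG on both strands and is known as the E-box of Myc and related factors, was in 12.0%, against 7.15% and 9.71%. Many of these genes are known as HIF-1 targets, so the set was not chosen independently of these letters, and the shares are a description. Tpi1 and Eno2, of the measured genes, and Gpi1 have neither ACGTG nor GCGTG in the window. Slc2a3 and Bnip3l were not searched.

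Other parts of glucose metabolism were read through lists of related genes. Glycogen genes went with the set: of 8 measured, 4 were lower in exFoxp3Th17 than in Th17 and none higher (median log2 -1.26). Over all genes, 7.27% were lower and 7.48% higher. The 4 lower genes were the glycogen phosphorylase Pygl (19.5-fold, 17.7 against 346), the branching enzyme Gbe1 (9.73-fold), the synthase Gys1 (6.07-fold) and phosphoglucomutase Pgm1 (4.34-fold). In Th17 against Th0, 3 of the 8 were higher (Gys1, Gbe1 and Pgm1, by 4.47-fold, 2.66-fold and 2.18-fold), where 8.22% of all genes were higher. Pygl was also lower in exFoxp3Th17 than in Treg, where it read 196 (log2 ratio -3.46).

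Of 28 further HIF-1 targets above the floor, exFoxp3Th17 against Th17 had 13 lower and 4 higher (median -0.84). Over all genes, 7.27% were lower and 7.48% higher. In Th17 against Th0, 16 of the 28 were higher and none lower (median 1.05), with 8.22% of all genes higher and 6.88% lower. In exFoxp3Th17 against Th17 the largest differences were in Selenbp1 (15.0-fold lower) and the adenylate kinase Ak4 (12.3-fold). The mitochondrial protein gene Fam162a (8.44-fold) and the oxidoreductase Ero1a (8.39-fold, 245 against 2052) followed. The 4 that were higher, named after their values were seen, were the lipid droplet gene Plin2 (2.09-fold), the ectonucleotidase Nt5e (2.08-fold), the cyclin Ccng2 (2.04-fold) and Narf (2.06-fold). In Th17 against Th0 the largest was the lysyl hydroxylase Plod2 (24.0-fold), then Plin2 (18.0-fold), the nuclear receptor Rora (10.3-fold) and Bhlhe40 (8.77-fold). Some known HIF-1 targets, like Egln3 within the set, thus stood above Th0 on both Th17-condition arrays: Plod2 was at 1088 in Th17, 249 in Treg, 45.3 in Th0 and 495 in exFoxp3Th17.

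Counts in the tricarboxylic acid cycle, pyruvate dehydrogenase and pentose phosphate lists were small, and with so few genes they cannot be separated from the 7.27% lower and 7.48% higher of all genes. Of 18 measured genes of the tricarboxylic acid cycle 1 was lower in exFoxp3Th17 than in Th17, none was higher and 17 were neither (median -0.08). The lower one was Pcx, the pyruvate carboxylase that refills the cycle (9.04-fold, at 123 in Th17, 147 in Treg, 73.2 in Th0 and 13.6 in exFoxp3Th17). None of 10 genes of pyruvate dehydrogenase and its regulators was called; the brightest, the mitochondrial pyruvate carrier Mpc1, was at 1354 in Th17, 983 in Treg, 926 in Th0 and 1253 in exFoxp3Th17. None of 8 pentose phosphate genes was called either, and the brightest, the transketolase Tkt, was at 4406 in Th17, 4829 in Treg, 5687 in Th0 and 3844 in exFoxp3Th17. In Th17 against Th0 these lists had 1 of 18, 1 of 10 and 1 of 8 called: Idh2 (2.45-fold lower), the kinase Pdk3 (2.68-fold higher) and the phosphoribosyl pyrophosphate synthetase Prps1 (3.49-fold higher). In that comparison 8.22% of all genes were higher and 6.88% lower, and these counts cannot be separated from those shares. Pdk3 and Prps1 are X-linked; the arrays compared there are not the one with Xist.

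Further isozymes of the pathway were divided: of 13, exFoxp3Th17 against Th17 had 2 higher and 2 lower (median 0.18). Over all genes 7.48% were higher and 7.27% lower, and counts this small cannot be separated from those shares. Pkm, the pyruvate kinase that ends glycolysis, went with the set at 1589.8 in Th17, 1528 in Treg, 1355 in Th0 and 478 in exFoxp3Th17, 3.32-fold lower. Ldhb, the lactate dehydrogenase subunit that favours pyruvate, went against it at 112 in Th17, 429.9 in Treg, 119.6 in Th0 and 612 in exFoxp3Th17: both Foxp3+-derived arrays were high. The others were Bpgm, of the 2,3-bisphosphoglycerate bypass (2.30-fold higher), and Slc2a2 (at least 2.20-fold lower, dim).

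None of 13 HIF subunits and regulators outside the 35 genes was called between exFoxp3Th17 and Th17 (median 0.24), where 7.27% of all genes were lower and 7.48% higher. This count leaves out Egln1 and Egln3, regulators within the set, which were lower, and Hif1a, for which the probe sets differed. Eloc, an elongin of the von Hippel-Lindau ubiquitin ligase, was the brightest (2069.8 in Th17 and 1563 in exFoxp3Th17). Arnt, the partner of HIF-1 alpha, named after its values were seen, was at 141 in Th17, 189 in Treg, 243 in Th0 and 271 in exFoxp3Th17. In Th17 against Th0, Epas1 (HIF-2 alpha) was 8.09-fold lower and the ubiquitin ligase Siah2 2.48-fold higher.

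**Figure D4:**
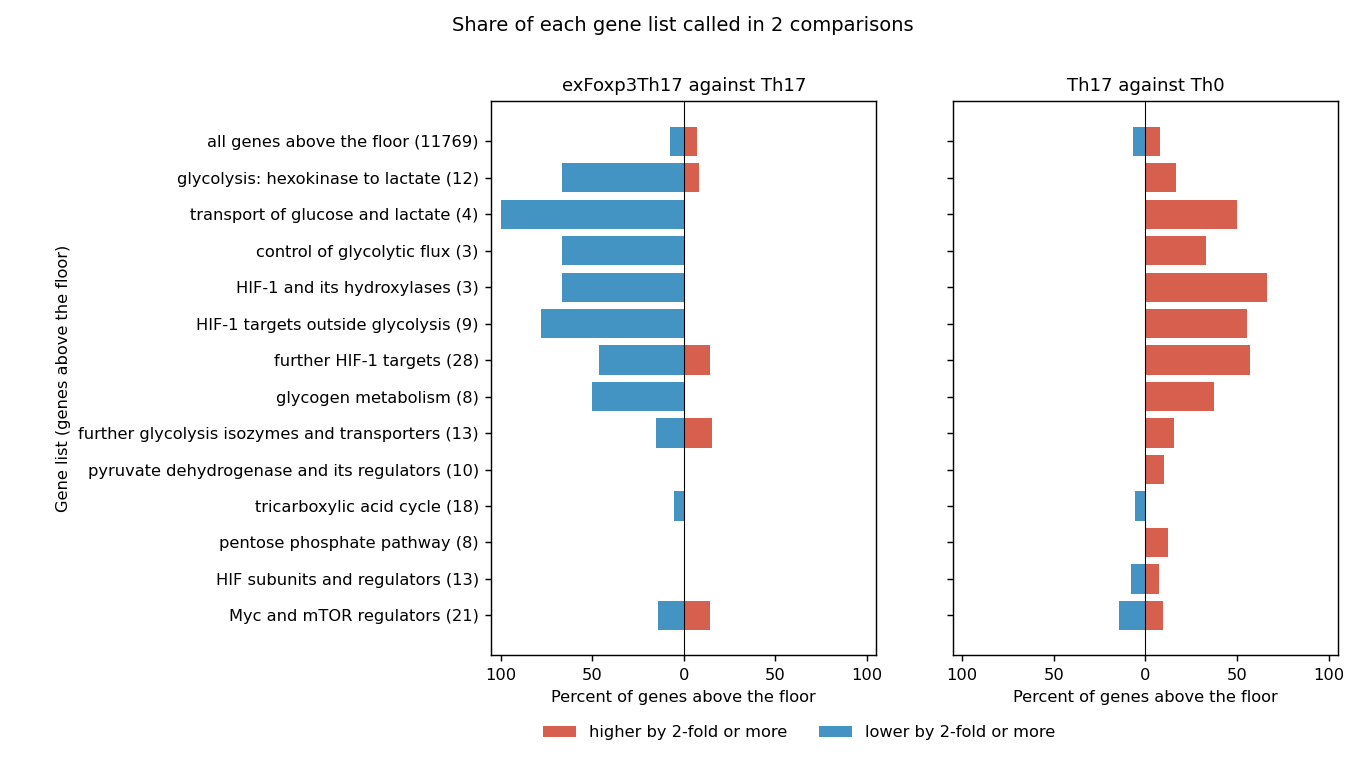
Percent of the genes above the floor in each list that were lower (blue, to the left) or higher (red, to the right) by 2-fold or more, in exFoxp3Th17 against Th17 and in Th17 against Th0; the top bar gives all 11769 genes and each label gives the number of genes. The groups of the 31 genes, the further HIF-1 targets and the glycogen genes extend to the left in the first panel, whereas the lists of pyruvate dehydrogenase, the tricarboxylic acid cycle and the pentose phosphate pathway have at most 1 gene called in each panel.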

How the data were processed

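Total RNA from the 4 sorted populations, 1 µg each, was labelled with biotin and hybridised to Affymetrix arrays, per the labels. The deposited values are signal intensities. The submitters' processing notes name MAS5, without a version, as the tool the authors used. The mean intensity without the lowest and highest 2% of probe sets was 100.0 on each. The table has 45101 probe sets, 64 of them controls. The platform annotation gives 34945 probe sets 1 symbol, updated through a RefSeq gene table (GRCm38.p6), and 932 several; the latter were left out.

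Signals were raised to the floor (12.1), put on the log2 scale, and compared between arrays at 2-fold with Python 3.11.15 and pandas 2.3.3. No test is possible with 1 array a group, and the number of arrays limits the precision. The calling step was run on simulated signals whose noise was set in advance, so that run does not measure the error of these calls. Promoter windows were searched by exact match.

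The members and lists were chosen with earlier results of these data known. The naming rule took all members and, of each further list, up to 4 called genes with the largest ratio or, with no call, the brightest. The comparison of exFoxp3Th17 with Th0, the counts of opposite calls and the ranks of arrays were chosen after seeing the data. The alternatives were another scaling (quantile, equal medians), floor (0.5 or 2 times, none, as pseudocount), probe set choice or threshold (3-fold).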

Additional observations from a re-analysis of the deposited data

Results flagged for a closer look

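For 10 genes the difference between cells from the Th17 conditions and cells from the other culture was called in opposite directions in the 2 origins, or the difference between origins was called in opposite directions in the 2 cultures. Each contrast rests on single arrays, so the difference between them was not tested. The value is the log2 ratio of Th17 over Th0 minus that of exFoxp3Th17 over Treg. It was 5.01 for Bnip3, 4.73 for Hk2, 4.27 for Egln3, 4.15 for Slc2a1, 3.84 for Slc2a3, 3.58 for Pgam1, 3.52 for P4ha1, 3.49 for P4ha2, 3.49 for Vegfa and 3.38 for Mxi1. Egln3, Mxi1 and P4ha1 are here only through the contrast of origins, exFoxp3Th17 below Th17 and Treg above Th0, and Slc2a3 and P4ha2 only through the contrast of cultures. The exFoxp3Th17 array, which enters every one of these values, is also the array with Xist (3766) and without Y-linked signal. The part of that pattern in the values was not tested and cannot be told apart from origin or culture.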

How the results depend on the processing

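With 1 array a population, no replicate could be left out, and no spread between cultures or animals is known. No paired analysis was possible because each group has 1 array. The counts of genes lower in exFoxp3Th17 than in Th17 (16 to 23 over the alternatives, 23 as reported), lower in exFoxp3Th17 than in Treg (14 to 17, 17 as reported) and higher in Th17 than in Th0 (9 to 13, 12 as reported) stayed within 1.5 times under every alternative run. So did the number lowest on the exFoxp3Th17 array (21 to 24) and highest on the Th17 array (19 to 23). Small counts moved. The 1 gene higher in exFoxp3Th17, Eno2, was 0 against Th17 and 0 against Treg at 2 times the floor and at 3-fold, and 0 against Th17 with the floor as a pseudocount. The 1 gene lower in Treg than in Th0 was 0 under quantile normalization, with equal medians, with the pseudocount and at 3-fold, and became 2 when probe sets were averaged by gene. At 3-fold, 2 of 9 genes remained higher in Treg than in Th0, 2 of 8 were opposite by origin, and 1 of 3 was higher and 5 of 13 lower in exFoxp3Th17 than in Th0. One called ratio reversed: Hk1 in exFoxp3Th17 over Th17 became 0.27 when probe sets with several symbols were used, through a probe set shared with Rpl17 and its pseudogenes. Of the recomputed ratios of single genes, 1181 moved by less than the spread between probe sets of a gene, 54 moved by more and 1 reversed. Without any floor, the median log2 ratio of all genes was 0.12 in exFoxp3Th17 over Th17 and -0.14 in Th17 over Th0. The share of calls that were higher over all genes was 43.0% in Th17 against Th0 without a floor and 54.4% with it. The dimmest genes (Eno2, Slc16a3, Vegfa) lie close to the floor and have the least certain ratios.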

Other observations

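In a list of Myc and mTOR regulators, exFoxp3Th17 against Th17 had 3 higher and 3 lower of 21 genes above the floor (median log2 0.00). Over all genes 7.48% were higher and 7.27% lower, and with so few genes the counts cannot be separated from those shares. Mxd4, an antagonist of Myc, had signals of 208 in Th17, 225 in Treg, 464 in Th0 and 2059 in exFoxp3Th17, highest in exFoxp3Th17 by a wide margin. Myc itself was at 986 in Th17, 527 in Treg, 567 in Th0 and 222 in exFoxp3Th17, lowest in exFoxp3Th17 and highest in Th17. Arrdc4 was at 21.6 in Th17, 29.5 in Treg, 11.9 in Th0 and 88.7 in exFoxp3Th17, its highest array also exFoxp3Th17. Txnip, whose product limits glucose uptake and which like Arrdc4 is known to respond to glucose, was at 819 in Th17, 561 in Treg, 1534 in Th0 and 2517 in exFoxp3Th17. Eif4ebp1, the translation inhibitor that mTOR phosphorylates, was at 1196 in Th17, 626 in Treg, 289 in Th0 and 257 in exFoxp3Th17, an order like that of Hk2. The third gene lower than in Th17 was the Myc antagonist Mxd3 (2.69-fold), so Mxd3 and Mxd4 went opposite ways. Txnip, Mxd3 and the next 2 genes were named after their values were seen. Mtor (157 to 222) and Rptor (52.4 to 68.1) were within 2-fold on all arrays.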
